A study of Mus musculus with 18 samples.

Results

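The interleukin 6 family and its route through the transcription factor STAT3 were followed through 9 genes: the cytokines Il6 and Lif, the receptor chains Il6ra, Il6st and Lifr, the kinases Jak1 and Jak2, the factor Stat3 and the feedback inhibitor Socs3. They were found by matching the Ensembl IDs of the deposited count tables to these symbols, and all 9 were among the 21288 genes listed and among the 19010 genes tested. The RNA came from mouse dorsal root ganglia, which hold the cell bodies of the sensory neurons of body and limbs. The groups were naive importin alpha3 knockout (KO, n = 4) and naive wild type (WT, n = 4), then KO and WT at 7 d after spared nerve injury (SNI, n = 3 each). At 2.5 months after SNI there were 3 KO libraries and 1 WT library. SNI cuts branches of the sciatic nerve and leaves another branch intact, and serves as a model of neuropathic pain. Importin alpha3, the product of Kpna4, carries proteins into the nucleus. The labels name no strain or age, no group operated on without nerve injury, and no restriction of the deletion to a cell type, so differences between times may include surgery and age. They do not state that each library came from its own animal, so the p-values rest on the spread among libraries, which may be technical.

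Interleukin 6 acts through its binding chain, encoded by Il6ra, together with gp130, encoded by Il6st; leukemia inhibitory factor acts through LIFR paired with gp130. The gp130 chain carries Janus kinases, which phosphorylate STAT3, and phosphorylated STAT3 enters the nucleus and drives target genes, among them Socs3, whose product blocks further signalling. In rodents, cytokines of this family and STAT3 phosphorylation are known to rise in ganglia after axon damage, and importin alpha3 has been reported to carry STAT3 in cultured cells. The counts measure messenger RNA and not phosphorylation or nuclear entry of STAT3, and in bulk tissue fewer cells of a type and less RNA per cell cannot be told apart.

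Promoters are given for Il6 and Socs3, which of the 9 genes had the largest called changes at 7 d, and for Reg3b, a known STAT3 target that was close to absent in naive libraries. Each is the RefSeq sequence on GRCm38.p6, 250 bases before to 50 bases after the RefSeq gene start. Capitals mark the match to a STAT motif, TTCNNNGAA, in Socs3 (chr11:117969317-117969616, minus strand) and Reg3b (chr6:78370635-78370934, plus strand), and to an AP-1 motif, TGANTCA, in Il6 (chr5:30012864-30013163, plus strand).
Socs3: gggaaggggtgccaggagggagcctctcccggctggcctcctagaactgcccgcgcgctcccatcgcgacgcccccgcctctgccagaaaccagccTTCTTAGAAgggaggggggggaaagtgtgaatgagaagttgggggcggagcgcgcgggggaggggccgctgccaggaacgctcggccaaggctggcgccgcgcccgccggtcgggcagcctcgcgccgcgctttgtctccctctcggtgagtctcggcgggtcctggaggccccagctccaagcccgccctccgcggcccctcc
Il6: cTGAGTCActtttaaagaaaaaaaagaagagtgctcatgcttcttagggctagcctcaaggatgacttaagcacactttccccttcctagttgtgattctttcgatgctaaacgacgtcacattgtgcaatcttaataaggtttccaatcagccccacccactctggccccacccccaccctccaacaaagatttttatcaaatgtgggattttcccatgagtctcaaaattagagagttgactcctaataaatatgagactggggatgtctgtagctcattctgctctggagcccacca
Reg3b: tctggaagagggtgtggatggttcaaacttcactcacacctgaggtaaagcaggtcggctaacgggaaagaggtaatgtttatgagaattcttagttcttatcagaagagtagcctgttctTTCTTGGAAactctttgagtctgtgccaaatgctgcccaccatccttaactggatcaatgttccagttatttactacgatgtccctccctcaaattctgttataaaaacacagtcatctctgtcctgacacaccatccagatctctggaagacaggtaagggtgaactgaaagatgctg
The Socs3 match begins 154 bases before the RefSeq start, the Reg3b match 129 bases before it and the Il6 match 249 bases before it. In the GENCODE positions given below, Socs3 spans 117966079 to 117970047 on the minus strand, and the Socs3 window lies inside that span. Promoters of all 9 genes were in the RefSeq table, 10 in all. The STAT motif stood in the promoter of 1 of the 9 genes, Socs3, and the AP-1 motif in those of 2, Il6 and Lif. Both motifs read the same on either strand, and they were searched on both; the STAT motif stood in 8.3% and the AP-1 motif in 7.81% of the 32851 promoters of the table. Of the 22 genes listed below as STAT3 targets, 17 had a promoter in the table. These 17 genes had 21 promoters. The STAT motif stood in a promoter of 3 of the 17 genes, Reg3b among them, and the AP-1 motif in 0. These are counts of genes with the motif in any promoter, while the shares above are of single promoters. A match of these letters is a description and not a binding site.

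Libraries are named by their titles, and values within a group follow a fixed order. It is ko_35, ko_39, ko_40, ko_95 in naive KO and wt_28, wt_44, wt_48, wt_67 in naive WT. It is ko_420__7d, ko_422_7d, ko_426_7d in 7 d KO and wt_409_7d, wt_410_7d, wt_416_7d in 7 d WT. It is ko_362_2_5_m, ko_367_2_5_m, ko_378_2_5_m in 2.5-month KO, with wt_376_2_5_m the lone WT library of that time. Levels are CPM, the count relative to the scaled library size. Total counts spanned 12565448 to 21585680. Totals ran between 18634506 and 21585680 when naive, between 12565448 and 14157742 at 7 d, and between 15501075 and 19283086 at 2.5 months. Kpna4 was at 1.01 to 5.63 CPM in KO libraries and at 89.6 to 135.8 CPM in WT libraries. The 6 axon injury genes Atf3, Sprr1a, Jun, Gal, Gap43 and Sox11 summed to 1854 to 6022 CPM in 7 d libraries and to 299.7 to 563.3 CPM in naive libraries. Neuron markers summed to 9880 to 20760 CPM over the libraries, and none of these markers was at 0 in a group. Library ko_422_7d stood apart from the other 7 d KO libraries in the trend of level with gene length: it was -0.84 on the log2 scale for each 10-fold of exon length, against 0.34 and 0.40 in ko_420__7d and ko_426_7d. In 7 d WT it was -0.06 in wt_409_7d and 0.35 and 0.39 in the other two. The trend was also negative in the 2.5-month libraries, at -0.86 to -0.39, and was 0.03 to 0.30 in naive libraries.

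Il6 RNA was scarce in naive ganglia and higher in every library at 7 d. Il6, which encodes the cytokine interleukin 6 (ENSMUSG00000025746, chromosome 5, 30013114 to 30019981, plus strand, GRCm38), was at 1.44, 1.27 and 1.88 CPM in 7 d KO libraries, against 0.0472, 0.137, 0.213 and 0.277 CPM in naive KO libraries. It was at 0.809, 0.427 and 1.23 CPM in 7 d WT libraries, against 0.249, 0.34, 0.308 and 0.159 CPM in naive WT libraries. In both genotypes the lowest 7 d library was above the highest naive one. The counts behind these levels were small, 16 to 24 in 7 d KO, 6 to 16 in 7 d WT, 1 to 6 in naive KO and 3 to 7 in naive WT. Il6 rose in KO with a log2 fold change of 3.13 ± 0.56 (SE, edgeR quasi-likelihood test, adjusted p = 0.00158), which is 8.77-fold. In WT the difference was 1.60 ± 0.56 (adjusted p = 0.143) and did not pass. Averaged over the genotypes, Il6 rose by 2.37 ± 0.40 (adjusted p = 0.000495), and neither the KO call nor the averaged one was lost when any single library was left out. Of 10 macrophage markers 5 were called higher in KO, 1 in WT and 6 on average at 7 d, and 0 were called lower. Of all genes 7.61% were called higher in KO, 2.5% in WT and 10.8% on average. The log2 difference was above 0 for 9 of the 10 markers in KO, 7 in WT and 7 on average, with a median of 1.11 on average. The part of these markers in the Il6 result was not tested.

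Lif, which encodes leukemia inhibitory factor (ENSMUSG00000034394, chromosome 11, 4257557 to 4272514, plus strand), was low throughout and did not separate the groups. It was at 0.793, 0.635 and 0.938 CPM in 7 d KO libraries, against 0.567, 0.686, 0.585 and 1.11 CPM in naive KO libraries. WT libraries had 0.735, 0.782 and 0.693 CPM at 7 d, against 1.15, 0.389, 0.308 and 0.531 CPM when naive. All 7 d values lay inside the naive range. The mean difference between 7 d and naive was 0.20 on the log2 scale, with a 95% interval of -0.42 to 0.82, so a change of Lif of the size seen for Il6 is outside the interval while a smaller one is not.

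Among the receptor chains, Lifr passed the test at 7 d in KO, and Il6ra and Il6st did not pass in either genotype. Il6ra (ENSMUSG00000027947, chromosome 3, 89864059 to 89913196, minus strand), which encodes the chain that binds interleukin 6, lies 20.7 Mb from Kpna4. It was at 6.56, 7.94 and 6.88 CPM in 7 d KO libraries, against 2.65, 4.21, 5.32 and 4.8 CPM in naive KO libraries, ranges that did not overlap. It was at 2.43, 1.92 and 9.01 CPM in 7 d WT libraries, against 4.69, 6.27, 3.85 and 2.98 CPM in naive WT libraries. The spread at 7 d in WT came from wt_416_7d, which was above every other library of the series, while the other two 7 d WT libraries were below every naive WT library. The difference in KO was 0.75 ± 0.40 on the log2 scale (adjusted p = 0.222). The mean over genotypes was 0.37, with a 95% interval of -0.24 to 0.98, and without wt_416_7d it was -0.14. The 10 markers of macrophages, cells known to carry this chain, summed to 269.8 CPM in wt_416_7d and to 147.5 and 116.3 CPM in the other 7 d WT libraries, against 91.9 to 276.3 CPM in naive WT. They summed to 146.7 to 368.7 CPM in 7 d KO, against 79.1 to 250.9 CPM in naive KO. Lyz2, named after its values were seen, made up much of these sums, at 83.9 CPM in 7 d KO and 83.7 CPM in naive KO, and 52.6 CPM in 7 d WT and 94.3 CPM in naive WT. The median log2 difference of the 10 markers was 1.19 in KO and 0.94 in WT, beside -0.00 over all genes. At 2.5 months the 10 markers summed to 272.2 CPM in wt_376_2_5_m, where Il6ra was at 3.84 CPM. In the 2.5-month KO libraries they summed to 155.7, 134.7 and 244.5 CPM, where Il6ra was at 4.45, 7.31 and 7.51 CPM. None of the markers was at 0 in a group, and their part in the result was not tested.

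Il6st, the gene of the shared signalling chain gp130 (ENSMUSG00000021756, chromosome 13, 112464070 to 112510086, plus strand), was at 580, 308 and 528 CPM in 7 d KO libraries, against 503, 488, 494 and 379 CPM in naive KO libraries. WT libraries had 470, 603 and 550 CPM at 7 d, against 431, 505, 563 and 490 CPM in naive libraries. The lowest of these libraries was ko_422_7d, and the groups overlapped. Its mean difference at 7 d was 0.07 on the log2 scale, with a 95% interval of -0.21 to 0.35.

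Lifr, the gene of the partner chain for leukemia inhibitory factor (ENSMUSG00000054263, chromosome 15, 7090614 to 7197489, plus strand), was at 480, 423 and 446 CPM in 7 d KO libraries, against 328, 353, 410 and 308 CPM in naive KO libraries. These ranges did not overlap, and Lifr rose in KO with a log2 fold change of 0.36 ± 0.12 (adjusted p = 0.0464). In WT, Lifr was at 381, 433 and 371 CPM at 7 d, against 330, 381, 406 and 376.5 CPM in naive libraries, and the difference was 0.08 ± 0.12 (adjusted p = 0.787). The KO call was lost in 10 of the 18 fits that left out a library, with an estimate between 0.31 and 0.45 over all of them. It was also lost in the fit of the compared groups alone (0.39, adjusted p = 0.117).

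Of the Janus kinases, Jak2 passed the test at 7 d on average over the genotypes and Jak1 did not. Jak1 (ENSMUSG00000028530, chromosome 4, 101152367 to 101265282, minus strand), the main kinase on gp130, was at 536, 358 and 479 CPM in 7 d KO libraries, against 526, 540, 416.3 and 472 CPM in naive KO libraries. In WT it was at 419, 515 and 452 CPM at 7 d, against 423, 503, 483 and 483 CPM in naive libraries. The groups overlapped, and the mean difference was -0.06 on the log2 scale, with a 95% interval of -0.26 to 0.13. Jak2 (ENSMUSG00000024789, chromosome 19, 29251828 to 29313080, plus strand), another kinase that binds gp130, was at 35.5, 30.3 and 30.6 CPM in 7 d KO libraries, against 22.7, 26.4, 28.6 and 23.5 CPM in naive KO libraries, and these ranges did not overlap. It was at 24.9, 29.5 and 32.3 CPM in 7 d WT libraries, against 24.8, 29.5, 26.1 and 23.3 CPM in naive WT libraries, which overlapped. The separate differences, 0.34 ± 0.12 in KO (adjusted p = 0.0705) and 0.15 ± 0.12 in WT (adjusted p = 0.587), did not pass. Averaged over genotypes the log2 fold change of Jak2 was 0.25 ± 0.09 (adjusted p = 0.0497), a call that was lost in 12 of the 18 fits that left out a library.

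Stat3 RNA did not pass a test between injured and naive ganglia. Stat3, the gene of the transcription factor at the end of the route (ENSMUSG00000004040, chromosome 11, 100885098 to 100939540, minus strand), was at 530, 377 and 446 CPM in 7 d KO libraries, against 423, 448, 400 and 384 CPM in naive KO libraries. It was at 438, 552 and 495 CPM in 7 d WT libraries, against 394, 480, 472 and 450 CPM in naive WT libraries, and the groups overlapped in both genotypes. The log2 difference was 0.12 ± 0.12 in KO (adjusted p = 0.530) and 0.14 ± 0.12 in WT (adjusted p = 0.634). On average it was 0.13 ± 0.09 (adjusted p = 0.303), with a 95% interval of -0.05 to 0.32. The interval bounds any mean change of Stat3 RNA well below the change of Socs3. The exons of Stat3 share 72 bases with those of Stat5a on the other strand, and the strand setting of the counting is not given in the sources used here.

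Socs3 was the only gene of the 9 that was called higher at 7 d in both genotypes. Socs3, the STAT3-induced inhibitor of gp130 signalling (ENSMUSG00000053113, chromosome 11, 117966079 to 117970047, minus strand), was at 29.8, 25.7 and 19.2 CPM in 7 d KO libraries, against 9.73, 10.8, 11.8 and 11.4 CPM in naive KO libraries. It was at 18.8, 17.9 and 31.5 CPM in 7 d WT libraries, against 10.8, 9.87, 14.7 and 8.71 CPM in naive WT libraries. In both genotypes every 7 d library was above every naive one. Its log2 fold change was 1.19 ± 0.21 in KO (adjusted p = 0.00129), or 2.28-fold, and 1.04 ± 0.21 in WT (adjusted p = 0.00853), or 2.06-fold. On average it was 1.11 ± 0.15 (adjusted p = 4.95e-05). The KO and average calls held without any single library, while without wt_416_7d the WT difference was 0.73 (adjusted p = 0.0966). The axon injury genes summed to 3380 CPM in wt_416_7d and to 1854 and 1974 CPM in the other 7 d WT libraries. In 7 d KO they summed to 3687, 6022 and 2299 CPM, and in both genotypes the order of the libraries differed from that of Socs3, although wt_416_7d was highest in WT for both. The part of the injury genes and of the macrophage markers in the result was not tested.

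**Figure D1:**
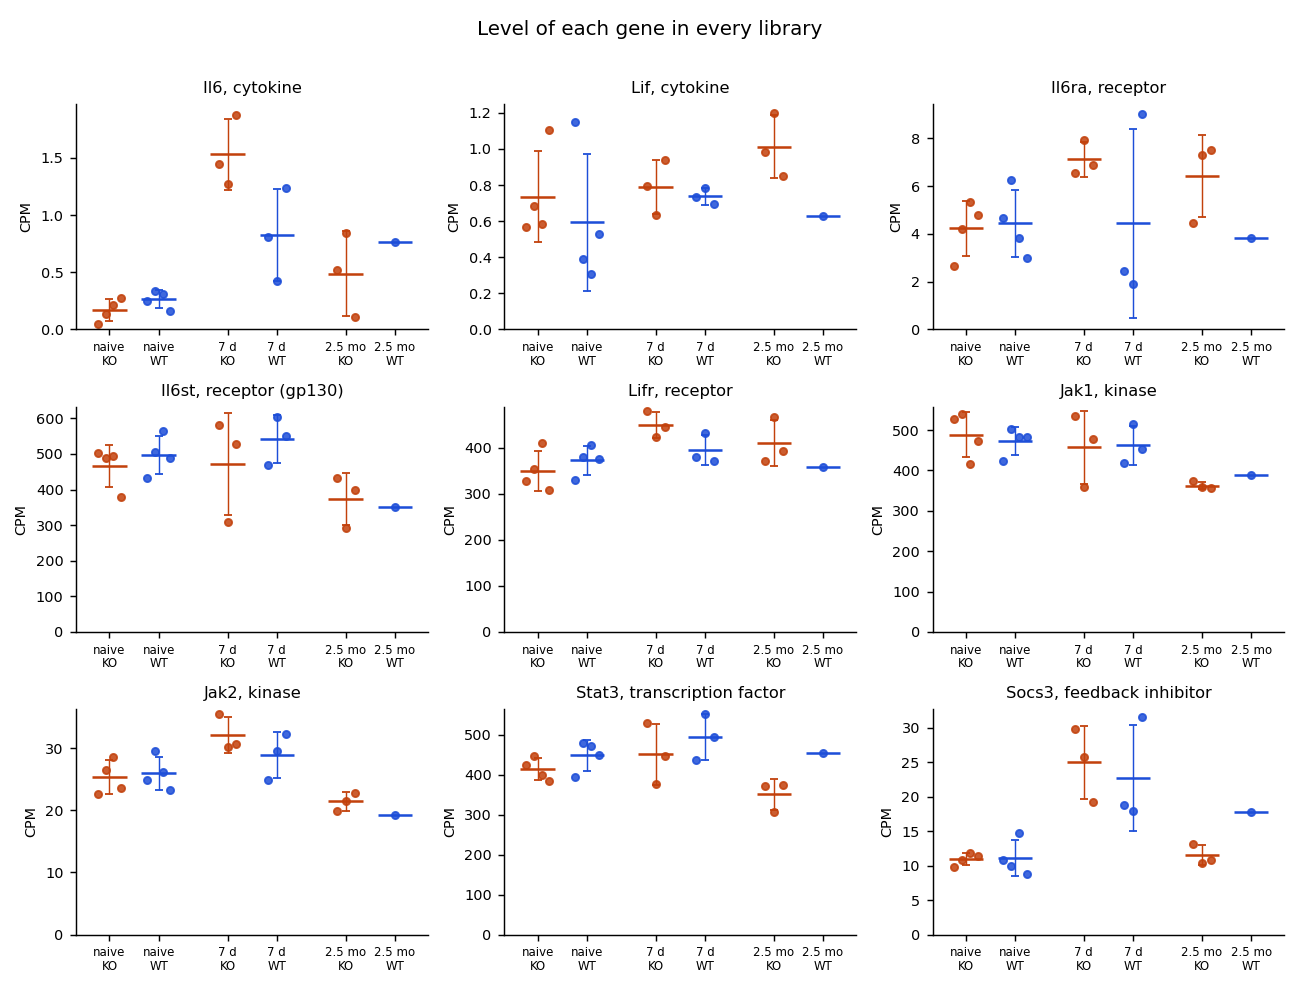
Level of each of the 9 genes, in CPM on an axis that starts at 0, in every library (points) of the 6 groups, with the group mean (line) and SD (bars, for groups of 3 or 4 libraries). Il6 and Socs3 lie higher at 7 d than in naive libraries in both genotypes, with Socs3 at 17.9 to 31.5 CPM at 7 d and 8.71 to 14.7 CPM in naive libraries, while Il6st, Jak1 and Stat3 overlap between 7 d and naive.

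Of the 9 genes, 3 rose and 0 fell at 7 d in KO (Il6, Socs3 and Lifr), where 13.5% of all genes were called and 7.61% were called higher. In WT 1 rose and 0 fell (Socs3), where 3.18% of all genes were called and 2.5% were called higher. Averaged over the genotypes 3 rose and 0 fell (Il6, Socs3 and Jak2), where 21.1% of all genes were called and 10.8% were called higher. The median log2 difference over the 9 genes was 0.34 in KO and 0.14 in WT, beside -0.00 over all genes in each genotype. Ranges of 7 d and naive libraries did not overlap for 5 of the 9 genes in KO, where 22.5% of all genes did not overlap, and for 2 in WT, where 18.9% did not. The test of the difference between the KO and WT responses passed for none of the 9 genes. With the edgeR interaction term 0 were called and 0 had an unadjusted p under 0.05, where 0.0105% and 3.7% of all genes did. DESeq2 called 0 of the 9 genes and 0.0094% of all genes. That difference was 1.53 ± 0.81 on the log2 scale for Il6, 0.76 ± 0.58 for Il6ra and 0.28 ± 0.16 for Lifr (adjusted p = 0.948 for each), and 0.15 ± 0.30 for Socs3 (adjusted p = 0.960). The Il6ra difference was 0.39 without wt_410_7d and 1.78 without wt_416_7d. A call in KO and none in WT is not a test of the difference between the genotypes.

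The direct comparison of KO with WT asks whether the loss of importin alpha3 changes RNA of the route. In naive mice edgeR called 0 of the 9 genes and 0.0263% of all genes. At an unadjusted p under 0.05 there were 0 of the 9 and 2.71% of all genes, and DESeq2 called 0 of the 9 and 0.0719% of all genes. Naive Il6 averaged 0.169 ± 0.0989 CPM in the 4 KO libraries and 0.264 ± 0.0793 CPM in the 4 WT libraries (SD), a difference of -0.64 ± 0.60 on the log2 scale with a 95% interval of -1.91 to 0.63. Naive Lif averaged 0.736 ± 0.253 CPM in KO libraries and 0.594 ± 0.380 CPM in WT libraries, a difference of 0.31 ± 0.37 with an interval of -0.48 to 1.1. Naive Stat3 averaged 414 CPM in KO and 449 CPM in WT, a difference of -0.12 ± 0.12 with an interval of -0.36 to 0.13 (adjusted p = 1 for each of the 3 genes, edgeR).

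Between the genotypes at 7 d, too, edgeR called 0 of the 9 genes, and 0.00526% of all genes. At an unadjusted p under 0.05 there were 0 of the 9 and 8.44% of all genes, and DESeq2 called 0 of the 9 and 0.129% of all genes. Il6 was the one gene whose ranges did not overlap between the genotypes, at 1.27 to 1.88 CPM in KO and 0.427 to 1.23 CPM in WT, where 8.17% of all genes did not overlap. The difference of Il6 was 0.90 ± 0.54 on the log2 scale, with a 95% interval of -0.23 to 2.03 (adjusted p = 0.635). For Stat3 it was -0.13 ± 0.13, with an interval of -0.41 to 0.15 (adjusted p = 0.766), and for Socs3 0.14 ± 0.22, with an interval of -0.33 to 0.60 (adjusted p = 0.867). The remaining receptor values were 0.68 ± 0.44 for Il6ra (adjusted p = 0.655), 0.19 ± 0.12 for Lifr (adjusted p = 0.664) and -0.20 ± 0.20 for Il6st (adjusted p = 0.768). The Il6ra value was 0.32 without wt_410_7d, 0.39 without wt_409_7d and 1.71 without wt_416_7d. Without ko_39, ko_40 and ko_422_7d the Il6st difference was 0.027, which turns its direction. Averaged over naive and 7 d, edgeR called 0 of the 9 genes and 0.0421% of all genes. At an unadjusted p under 0.05 there were 0 of the 9 and 7.25% of all genes, and DESeq2 called 0 of the 9 and 0.267% of all genes.

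**Figure D2:**
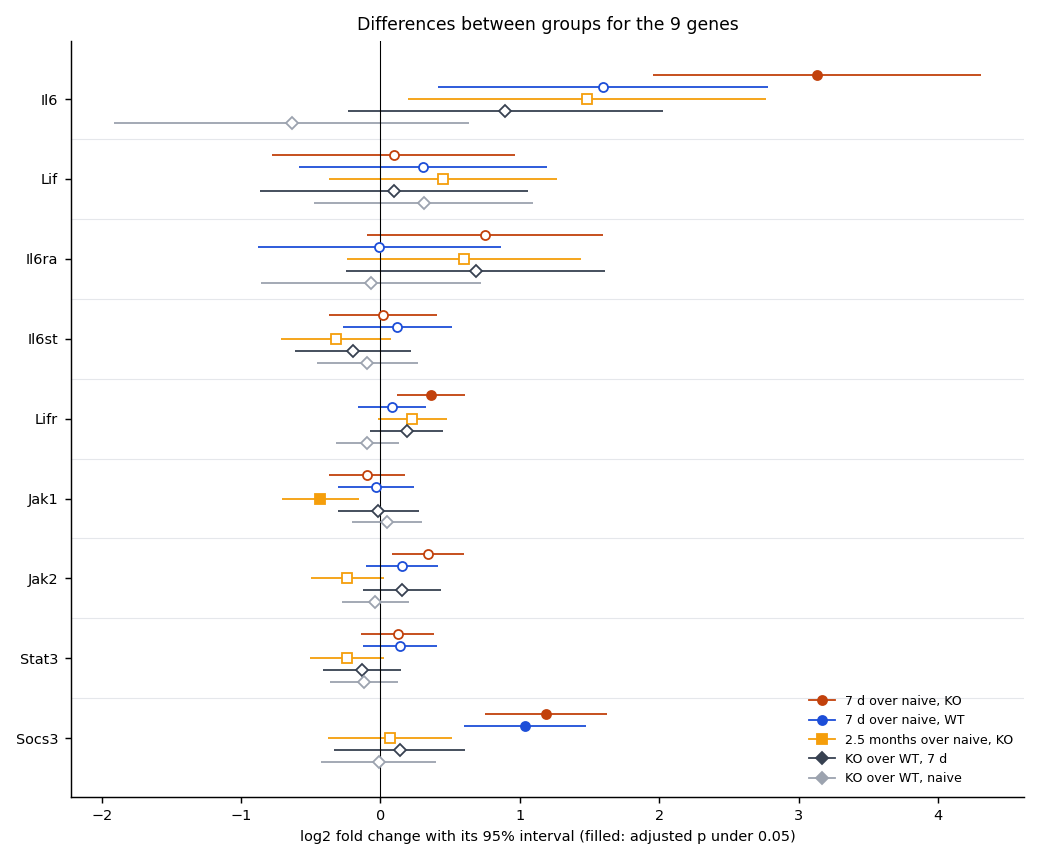
Log2 fold changes of the 9 genes (horizontal axis) with 95% intervals for 7 d over naive in KO and in WT, 2.5 months over naive in KO, and KO over WT at 7 d and in naive mice; filled symbols passed an adjusted p of 0.05. Il6 and Socs3 in KO and Socs3 in WT at 7 d passed and stand clear of 0. Lifr at 7 d in KO and Jak1 at 2.5 months passed and are closer to 0. Intervals of Il6 in WT and Jak2 in KO at 7 d, and of Il6 in KO at 2.5 months, also exclude 0 but did not pass. Every KO over WT interval includes 0.

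At 2.5 months in KO the levels of Socs3 and Jak2 were nearer to naive than to 7 d. In KO, Socs3 was at 9.73 to 11.8 CPM in naive libraries, 19.2 to 29.8 CPM at 7 d and 13.1, 10.4 and 10.9 CPM at 2.5 months. Between 7 d and 2.5 months it fell by 1.12 ± 0.23 in log2 units (adjusted p = 0.00733) and differed by 0.07 ± 0.21 from naive KO (adjusted p = 0.844). Jak2 was at 19.9, 21.6 and 22.9 CPM at 2.5 months in KO, and fell by 0.58 ± 0.13 relative to 7 d (adjusted p = 0.0153), with a difference of -0.24 ± 0.12 from naive KO (adjusted p = 0.190). Both falls lost the call without ko_420__7d, at -0.97 for Socs3 (adjusted p = 0.0530) and -0.51 for Jak2 (adjusted p = 0.0880). That of Jak2 was also lost without ko_362_2_5_m (-0.53, adjusted p = 0.0584) and in the fit of the compared groups alone (-0.58, adjusted p = 0.119). These 2 genes were the only members called between 7 d and 2.5 months in KO, 0 higher and 2 lower, where 6.48% of all genes were called and 4.33% were called lower. Without ko_422_7d, 6 of the 9 genes were called lower, where 14.2% of all genes were. The gene length trend of ko_422_7d, -0.84, was negative, as were those of the 2.5-month KO libraries, at -0.60 to -0.39. The 7 d KO libraries left in that fit had trends of 0.34 and 0.40. The part of the length trend in the count of 6 was not tested. In WT, Socs3 averaged 11.03 CPM in naive libraries and 22.7 CPM at 7 d and was at 17.8 CPM in the lone library at 2.5 months. WT Jak2 averaged 25.95 CPM in naive libraries and 28.9 CPM at 7 d and was at 19.2 CPM in that library.

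Jak1 was lower at 2.5 months than in naive mice in KO. It was at 374, 358 and 356 CPM at 2.5 months, below all 4 naive KO libraries, and fell by 0.43 ± 0.13 in log2 units (adjusted p = 0.0431). The call was lost in 9 of the 18 fits that left out a library, and with an offset for the gene length trend the difference was -0.26 (adjusted p = 0.116). Jak1 was the 1 gene of the 9 called between 2.5 months and naive in KO, where 11.6% of all genes were called and 4.57% were called lower. Stat3 was at 372, 306 and 375 CPM at 2.5 months in KO, also below all naive KO libraries, where 33.5% of all genes had ranges that did not overlap. Its difference was -0.24 ± 0.13 (adjusted p = 0.197), and with the length offset it was 0.027. Il6st was at 432, 292 and 398 CPM, a difference of -0.32 ± 0.19 (adjusted p = 0.244), and Lifr at 372, 466 and 392 CPM, a difference of 0.23 with an adjusted p of 0.180. These 2 differences also moved with the processing. Over the 6 alternatives other than the fits without a single library, Il6st ran from -0.32 to -0.0052 and Lifr from 0.23 to 0.54.

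At 2.5 months Il6 did not pass against either earlier time in KO. It was at 0.52, 0.839 and 0.106 CPM in KO, 2 of the 3 libraries above every naive KO library. Its difference was 1.48 ± 0.61 from naive KO (adjusted p = 0.105) and -1.65 ± 0.55 from 7 d KO (adjusted p = 0.0806). The first was 0.85 without ko_367_2_5_m, and the second passed without ko_422_7d (-1.77, adjusted p = 0.0378). Il6ra was at 4.45, 7.31 and 7.51 CPM and Lif at 0.983, 1.20 and 0.852 CPM. The lone WT library at 2.5 months had 0.768 CPM of Il6, 0.628 CPM of Lif, 3.84 CPM of Il6ra, 351 CPM of Il6st and 359 CPM of Lifr. It had 388.5 CPM of Jak1, 19.2 CPM of Jak2, 454 CPM of Stat3 and 17.8 CPM of Socs3. Against naive WT it differed by 0.69 ± 0.30 for Socs3 (adjusted p = 0.127), by 1.51 ± 0.79 for Il6 (adjusted p = 0.205) and by -0.44 ± 0.19 for Jak2 (adjusted p = 0.129), with a spread borrowed from the other groups. Here edgeR called 0 of the 9 genes and 13% of all genes. At an unadjusted p under 0.05 there were 2 of the 9 and 30.2% of all genes, and DESeq2 called 0 of the 9 and 18.4% of all genes. Between KO and that library edgeR called 0 of the 9 genes and 0.0473% of all genes. At an unadjusted p under 0.05 there were 0 of the 9 and 12.3% of all genes, and DESeq2 called 0 of the 9 and 1.06% of all genes. Socs3 differed by -0.63 ± 0.31 (adjusted p = 0.419) and Stat3 by -0.37 ± 0.19 (adjusted p = 0.424).

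Levels between genes were compared per kilobase of merged exon length. In naive KO the order was Jak1 at 67.6 ± 7.79, Stat3 at 43.4 ± 2.95, Il6st at 42.0 ± 5.24, and Lifr at 32.5 ± 4.12 CPM per kb (SD, n = 4). Below them came Jak2 at 5.03 ± 0.542, Socs3 at 3.78 ± 0.305, Il6ra at 0.491 ± 0.134, Lif at 0.169 ± 0.0581 and Il6 at 0.0694 ± 0.0407 CPM per kb. Stat3, Il6st and Lifr overlapped as neighbours in that order, and every other neighbouring pair was separated in all libraries. Naive WT had the same order of means, with Stat3 and Il6st, Jak2 and Socs3, and Lif and Il6 overlapping. At 7 d Socs3 stood above Jak2, at 8.63 CPM per kb in KO and 7.85 in WT, where Jak2 had 6.39 in KO and 5.74 in WT, though the libraries of the 2 genes overlapped. Il6 stood above Lif at 7 d, at 0.630 CPM per kb in KO and 0.339 in WT, where Lif had 0.181 in KO and 0.169 in WT, separated in KO and overlapping in WT. Jak1, Stat3, Il6st and Lifr were in this order of means at 7 d in both genotypes as in naive mice.

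Genes with the profile most like each of the 9 were taken by Pearson correlation of log2(CPM + 0.5) over the 18 libraries among 13538 genes, as a description; the libraries share their time groups, depth and length trend. For Socs3 they were Ankrd13a (r = 0.959), Cited2 (r = 0.951) and Gpr153 (r = 0.948), and for Il6 Rrnad1 (r = 0.916), Liph (r = 0.908) and Mirg (r = 0.899). For Stat3 they were Tollip (r = 0.929), Pik3cd (r = 0.924) and Rab15 (r = 0.917), and for Il6st Klf8 (r = 0.983), Ampd3 (r = 0.963) and Slc29a3 (r = 0.961). Jak1 was closest to Mctp2 (r = 0.937), Hltf (r = 0.937) and Ube4a (r = 0.936), and Jak2 to Tnfaip1 (r = 0.933), Zfp57 (r = 0.930) and Tfdp1 (r = 0.918). Lifr was closest to Tbl1xr1 (r = 0.830), Rc3h1 (r = 0.807) and Creb1 (r = 0.794). Il6ra was closest to Ppp2r5a (r = 0.831), Atf1 (r = 0.818) and Mndal (r = 0.811), and Lif to Pacsin3 (r = 0.749), Tor2a (r = 0.733) and Itgb5 (r = 0.712).

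Other cytokines and receptors of the family were read from lists of 9 and 5 genes. Of the cytokines, 6 were tested, and Il11, Il31 and Ctf2 were not. At 7 d edgeR called 0 of the 6 in either genotype, with a median log2 fold change of -0.18 in KO and -0.06 in WT. Unadjusted p-values under 0.05 were found for 2 in KO and 1 in WT, beside 29.8% and 16.8% of all genes, and DESeq2 called 1 in KO and 0 in WT, beside 18% and 6.01% of all genes. When a library was left out, edgeR called 0 to 2 in KO and 0 or 1 in WT. Averaged over genotypes 1 rose and 1 fell, where 21.1% of all genes were called. The gene that rose was Il27, whose counts were 8 or fewer in every 7 d and naive library. The Il27 call was lost in most fits that left out a library (1.65 to 2.0). The gene that fell was Cntf, a Schwann cell cytokine, with a log2 fold change of -1.06 ± 0.30 (adjusted p = 0.0185), with the call lost without wt_409_7d (-0.93, adjusted p = 0.0510) and without ko_39, ko_40 and ko_422_7d together (-0.97, adjusted p = 0.0658). The 5 Schwann cell markers summed to 3349 to 4743 CPM in 7 d KO, against 5135 to 9480 CPM in naive KO. In WT they summed to 2644 to 5203 CPM at 7 d, against 4277 to 11030 CPM in naive libraries. None was at 0 in a group, and their part in the result was not tested. Of the 5 receptor chains 0 were called at 7 d in either genotype or on average (edgeR; 1 in KO, 0 in WT and 0 on average at an unadjusted p under 0.05, 0 by DESeq2). For the average the shares of all genes were 34.2% unadjusted and 23.7% by DESeq2, with all libraries. Without ko_426_7d edgeR called 2 of the 5 in KO and 1 on average. The share of all genes in that fit is not given here, so these counts cannot be set against it. Il11ra1, the interleukin 11 receptor chain, rose at 2.5 months in KO by 0.78 ± 0.21 relative to naive (adjusted p = 0.0270). It was at 13.8 ± 3.12 CPM at 2.5 months, against 8.03 ± 1.5 CPM in naive libraries, and the call was lost without ko_35, ko_39, ko_367_2_5_m or ko_378_2_5_m (0.66 to 0.75).

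Of 7 other Janus kinases and STAT factors, 2 rose and 0 fell at 7 d in KO and 1 rose and 0 fell in WT. The shares of all genes called were 13.5% in KO and 3.18% in WT. The median log2 fold change of the 7 was 0.26 in KO and 0.19 in WT. Stat5b, a factor of growth hormone and cytokine signalling, was at 75.6 ± 6.46 CPM in 7 d KO and 46.6 ± 3.66 CPM in naive KO, a log2 fold change of 0.70 ± 0.13 (adjusted p = 0.00183). In WT it was at 69.4 ± 15.7 CPM at 7 d and 48.8 ± 3.41 CPM in naive libraries. It rose there by 0.51 ± 0.13 (adjusted p = 0.0341), although 1 of the 3 libraries at 7 d lay within the naive range. The WT call was lost without any 1 of the 4 naive WT libraries, wt_410_7d or wt_416_7d (0.37 to 0.54). Its near relative Stat5a rose in KO by 1.04 ± 0.21 (adjusted p = 0.00377). Averaged over genotypes 3 rose (Stat5b, Stat5a and Jak3) and 1 fell (Stat6), where 21.1% of all genes were called. The Stat6 call was lost in 12 of the 18 fits that left out a library (-0.24 to -0.20 in those 12). Without ko_422_7d 4 of the 7 were called at 7 d in KO, where 9.31% of all genes were. At 2.5 months Stat5b and Stat5a were lower than at 7 d in KO, with log2 differences of -0.78 and -1.24 (adjusted p = 0.00306 and 0.00384). They were 2 of 4 genes of the list that fell there, with 0 that rose, where 4.33% of all genes were called lower. The calls of the other 2, Jak3 and Stat2, were lost without ko_420__7d, ko_426_7d, ko_367_2_5_m or ko_378_2_5_m.

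Of the 15 negative regulators other than Socs3, 4 rose and 1 fell at 7 d in KO and 1 rose and 0 fell in WT. Among all genes 13.5% were called in KO and 3.18% in WT. The KO count of 5 was 3 without ko_35 or ko_39 and 2 without ko_95 or ko_422_7d. Cish, a STAT5-induced relative of Socs3, was at 17.7 ± 2.09 CPM in 7 d KO and 10.3 ± 1.05 CPM in naive KO and rose by 0.79 ± 0.15 (adjusted p = 0.00266). Ptpn1, a phosphatase that acts on Janus kinases, rose by 0.65 ± 0.14 in KO (adjusted p = 0.00638) and by 0.71 ± 0.14 in WT (adjusted p = 0.00830), the WT call being lost without wt_416_7d (0.59, adjusted p = 0.0788). Averaged over genotypes 4 rose and 0 fell, Ptpn1, Cish, Socs1 and Socs2, where 21.1% of all genes were called. The median over the 15 genes was 0.07. At 2.5 months in KO 1 rose (Cish) and 1 fell (Pias3) relative to naive, where edgeR called 11.6% of all genes. Both calls were lost in fits that left out a naive KO or 2.5-month KO library. DESeq2 called 6 of the 15 and 22.3% of all genes. Without ko_422_7d edgeR called 8 of the 15 and 25.7% of all genes.

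Of the 22 genes known as STAT3 targets in mouse or human cells, 6 rose and 1 fell at 7 d in KO and 4 rose and 0 fell in WT. In the same fit 13.5% of all genes were called in KO and 3.18% in WT. The KO count of 7 was 4 without ko_35 or ko_39, 3 without ko_95 and 2 without ko_422_7d. The WT count of 4 was 2 without wt_28, wt_44 or wt_409_7d, 1 without wt_67 and 0 without wt_416_7d, where 1.16% of all genes were called. The median over the 22 was 0.37 in KO and 0.41 in WT, beside -0.00 over all genes. Timp1, an inhibitor of matrix metalloproteinases, was at 5.60 ± 2.48 CPM in 7 d KO and 1.15 ± 0.484 CPM in naive KO with a log2 fold change of 2.29 ± 0.34 (adjusted p = 0.000335). In WT it was at 4.58 ± 0.438 CPM at 7 d and 1.58 ± 0.529 CPM in naive libraries and rose by 1.52 ± 0.33 (adjusted p = 0.0153), a call lost without wt_67 (1.31) or wt_416_7d (1.52, adjusted p = 0.0672). Il4ra, the interleukin 4 receptor chain, rose by 0.93 ± 0.16 in KO (adjusted p = 0.000904) and by 0.82 ± 0.16 in WT (adjusted p = 0.00593), the WT call being lost without wt_416_7d (0.67, adjusted p = 0.0642). Bcl3, a partner of NF-kappaB, and Cebpd, an acute-phase transcription factor, rose by 0.72 ± 0.13 and 1.24 ± 0.23 averaged over genotypes (adjusted p = 0.000864 and 0.00131), calls that held without any single library.

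Reg3b, a secreted lectin whose promoter is shown above, was counted 1 to 31 times in 7 d KO libraries and 1 to 5 times in 7 d WT libraries, against 0 or 1 time in naive libraries of either genotype. Library ko_422_7d, at 2.46 CPM, was above all others, and the remaining 7 d KO libraries had 0.0721 and 0.235 CPM. Averaged over genotypes 10 of the 22 genes rose and 3 fell, where 21.1% of all genes were called, and 7 of the 22 were called without ko_39, ko_40 and ko_422_7d. The falls were those of Lcn2, Hp and A2m, named after their values were seen; Lcn2 and Hp encode proteins of neutrophil granules and acute-phase serum. Lcn2 was at 10.97 ± 5.17 CPM in 7 d KO and 38.8 ± 19.9 CPM in naive KO. In WT it was at 8.98 ± 7.24 CPM at 7 d and 46.4 ± 28.4 CPM in naive libraries, and on average it fell by 2.10 ± 0.53 (adjusted p = 0.0132), a call lost without ko_39, ko_40 and ko_422_7d together (-2.16, adjusted p = 0.0543). The average falls of Hp and A2m were lost there too (adjusted p = 0.0960 and 0.152), and in 6 and 11 of the 18 fits that left out a library. The 5 neutrophil markers summed to 23.5 to 82.4 CPM in 7 d KO, against 149.6 to 481.8 CPM in naive KO. In WT they summed to 5.90 to 67.8 CPM at 7 d, against 141.6 to 692.8 CPM in naive libraries. No marker was at 0 in a group, and their part in the result was not tested. At 2.5 months in KO 4 of the 22 rose and 2 fell relative to naive, where 11.6% of all genes were called. Without ko_35, ko_39 or ko_367_2_5_m 0 of these 6 calls held and without ko_378_2_5_m 1 of the 22 was called; without ko_35 2.05% of all genes were called. Cebpd, 1 of the 4, was at 38.5 ± 7.04 CPM at 2.5 months and 14.8 ± 5.44 CPM in naive libraries, a log2 fold change of 1.38 ± 0.33 (adjusted p = 0.0195). The call was lost without ko_35, ko_39, ko_367_2_5_m or ko_378_2_5_m (1.21 to 1.52).

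**Figure D3:**
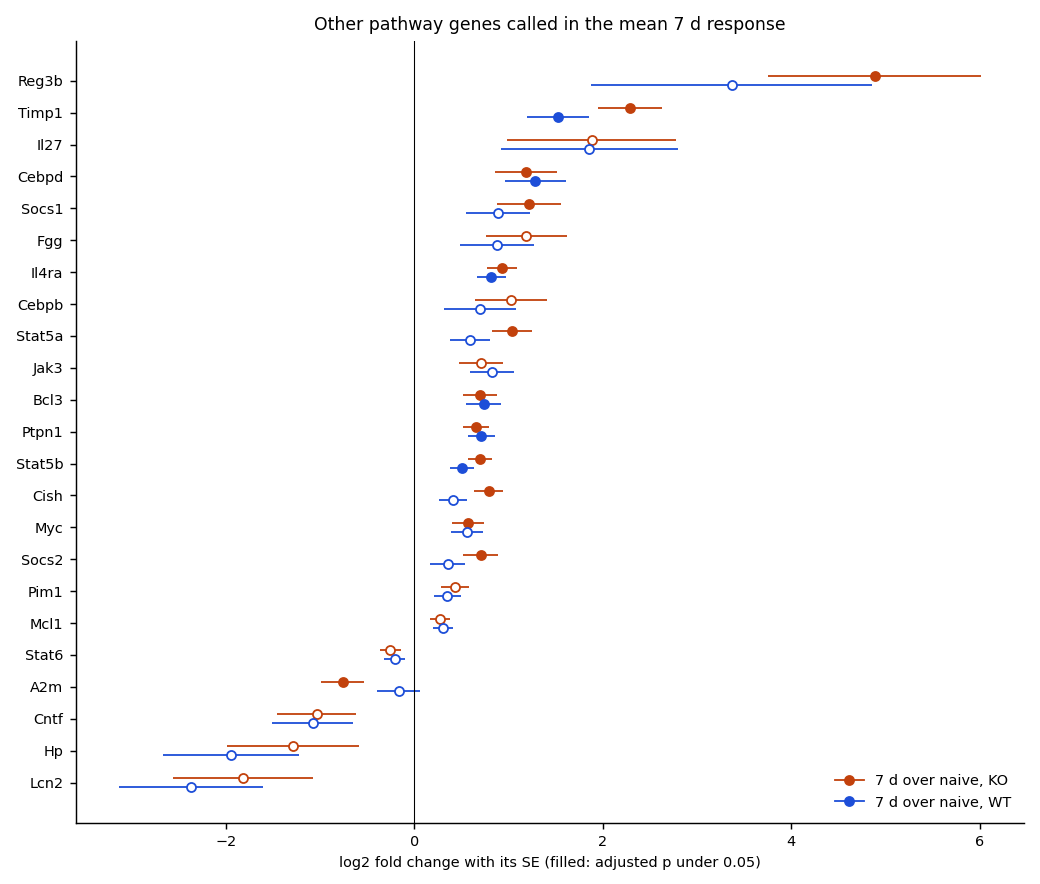
Log2 fold changes (horizontal axis) with SE for 7 d over naive in KO and in WT, for the genes of the cytokine, kinase and STAT, regulator and STAT3 target lists that were called in the average over genotypes; filled points passed in that genotype. Timp1 and Il4ra lie to the right of 0 in both genotypes, Lcn2 and Hp to the left, and Reg3b rests on 0 or 1 count in each naive library.

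None of the list genes was called between KO and WT in naive mice or at 7 d, or for the difference in response, by edgeR or by DESeq2. At an unadjusted p under 0.05 there were 3 of the 22 STAT3 target genes in naive mice and 2 at 7 d, where 2.71% and 8.44% of all genes passed that threshold. There were also 1 of the 15 negative regulators at each time, 1 of the 7 kinases and STAT factors in naive mice and 1 of the 6 cytokines at 7 d. For the difference in response there were 1 of the 15 negative regulators and 1 of the 22 target genes, beside 3.7% of all genes. The median KO over WT difference of the 22 target genes was -0.02 on the log2 scale in naive mice and 0.02 at 7 d, beside 0.00 and 0.02 over all genes.

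**Figure D4:**
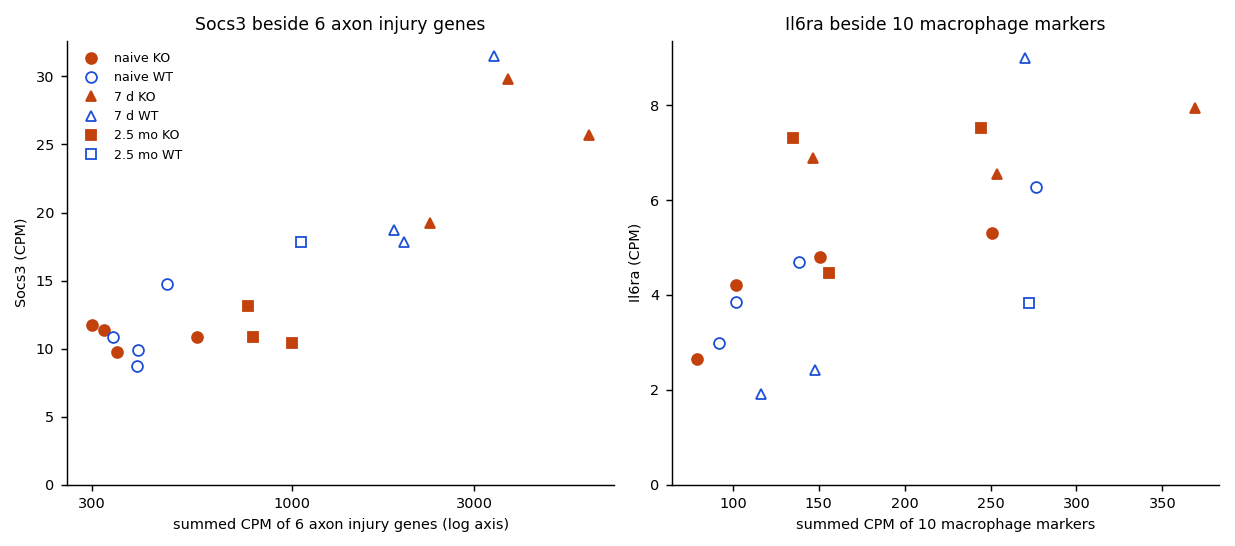
Left: Socs3 (CPM) against the summed CPM of 6 axon injury genes (log axis); right: Il6ra (CPM) against the summed CPM of 10 macrophage markers; each point is a library, filled for KO and open for WT, with the shape giving the time. The 7 d libraries lie up and to the right on the left plot, with wt_416_7d the highest in Socs3 at 31.5 CPM. On the right plot wt_416_7d is the highest in Il6ra at 9.01 CPM, with 269.8 CPM of macrophage markers. Library wt_376_2_5_m has 3.84 CPM of Il6ra with 272.2 CPM of these markers.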

How the data were processed

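Dorsal root ganglion RNA libraries were made from polyadenylated RNA; STAR, HTSeq 0.6.1p1, DESeq2 1.10.1, cutadapt and bcl2fastq 2.17.1.14 are named in the submitters' processing notes, with build GRCm38. Whether counting used strand, and which annotation, is not given in the sources. The authors deposited whole-number counts per gene and a normalized signal, which equals counts over a library's size factor (recomputed to within 1.24e-07); tests used the counts. GENCODE M21 gave symbols, exon lengths and positions; 21258 IDs had a symbol and 30 had none. Promoters came from RefSeq.

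Counts were fitted with edgeR 4.0.16 in R 4.3.3 (TMM scaling, filterByExpr with minimum count 10 and total 15, robust quasi-likelihood, 18 libraries, residual degrees of freedom 12). The Benjamini-Hochberg adjustment ran over 19010 genes, and a gene was called under 0.05; SE comes from the F statistic. The fit was tested on simulated data.

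The 9 genes, the lists and the naming rule were chosen with earlier results of these data known. The rule names the 9 genes, up to 4 called genes per list and the 3 closest profiles. The lists leave out genes that are not reported here. Alternatives were DESeq2 1.42.0, median-ratio scaling, no filter, compared groups only, a gene length offset, leaving out ko_39, ko_40 and ko_422_7d together, and leaving out each library.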

Additional observations from a re-analysis of the deposited data

Results flagged for a closer look

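Il6st, the gp130 gene, had 1 naive KO library away from the rest of its group: ko_95 was at 379.4 CPM, while the other naive KO libraries were at 487.9 to 502.8 CPM. The gap to the nearest library was 0.879 of the group's range, above Dixon's critical value for 4 samples. It was the 1 library marked among 18 sets of 4 (9 genes in each naive group), and chance marks about 1 set in 20.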

How the results depend on the processing

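The 7 d calls of Il6 and Socs3 in KO and on average held under every alternative run, and those of Socs3 in WT ended only without wt_416_7d (values in the report). The calls of Lifr in KO, of Jak2 on average and of Jak1 at 2.5 months ended in 10, 12 and 9 of 18 fits that left out a library; without the filter on low counts Lifr was 0.36 (adjusted p = 0.0566) and Jak2 0.24 (adjusted p = 0.0613). The number of the 9 genes called between 2.5 months and 7 d in KO was 1 with the compared groups only and 5 without ko_39, ko_40 and ko_422_7d, and 0 to 6 when a library was left out. It was 0 or 1 in those fits for 2.5 months over naive in KO and for 7 d over naive in WT. The share of all genes called also moved between fits. For genes lower at 2.5 months than at 7 d in KO it was 4.33% with all libraries and 14.2% without ko_422_7d. For 7 d over naive in WT it was 3.18%, and 1.16% without wt_416_7d. For 2.5 months over naive in KO it was 11.6%, and 2.05% without ko_35. Where a count from an alternative fit stands without such a share, here and above, it cannot be set against all genes. Directions turned for values that had not passed: with the length offset at 2.5 months in KO, Stat3 was 0.027 and Socs3 -0.054, and without the 3 libraries named above Il6st in KO over WT at 7 d was 0.027. Leaving out a library gave -0.37 to 0.033 for Il6st and -0.013 to 0.45 for Socs3 in KO over WT at 7 d, -0.0072 to 0.24 for Stat3 at 7 d in KO, and -0.036 to 0.13 for Socs3 at 2.5 months over naive in KO. It gave -0.14 to 0.55 for Il6ra, -0.017 to 0.19 for Il6st and -0.13 to 0.011 for Jak1 at 7 d on average, and -0.036 to 0.46 for the difference of the Socs3 responses. The cause was not tested. Of 1310 counts of list genes under alternatives, 1169 equalled the reported count or were within 1.5 times it, and 141 were not. A reported count of 0 that stayed at 0 was taken as equal, and many reported counts were 0. The 1169 therefore do not measure how steady the counts above 0 were. Il6, at 1 to 24 counts per library in naive and 7 d mice, is limited by depth. The lone WT library cannot be left out of its comparisons, and Il6 fell under the count filter, giving no value, in fits of the compared groups only for KO over WT in naive mice, 7 d over naive in WT and 2.5 months over naive in KO. No paired analysis was possible because library numbers are not shared between groups.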
